A study of Mus musculus with 2 samples.

Results

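The 10 genes described here take up, carry, store, export or recycle iron in the brain, and they were followed in the hippocampus of ICR mice 8 weeks after 5/6Nx or a sham operation. They were chosen by name: every non-control feature of both scanner files whose gene name was Tfrc, Trf, Slc11a2, Fth1, Ftl1, Slc40a1, Cp, Hamp, Hmox1 or Ireb2. This gave 26 features of 17 probes, for 10 of the 34741 gene and transcript names on the array. Of the 10 genes, 9 had a probe well above background on both arrays and are called measured below, and the hepcidin gene Hamp did not.

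The 5/6Nx group was 1 hippocampal RNA sample from operated ICR mice, and the sham group was 1 hippocampal RNA sample from sham-operated ICR mice. The labels do not spell out 5/6Nx, which usually stands for surgical removal of most kidney tissue as a model of chronic kidney disease. ICR is an outbred stock, and the labels give neither the age and sex of the mice nor how many gave each RNA. Cy3-labelled copies of each RNA were read on 1-colour arrays of 60-base probes, 1 array per group, on 1 slide and in 1 scan. With 1 sample a group no test was possible, and each difference below describes these 2 arrays and not the operation.

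Iron travels in blood and in the extracellular fluid of the brain bound to transferrin, which the cell takes up through the transferrin receptor. Inside the cell it leaves the endosome through a divalent metal transporter, is stored in ferritin, and is exported by ferroportin together with a ferroxidase such as ceruloplasmin. Iron regulatory proteins bind iron-responsive elements (IREs) in several of these mRNAs when iron is scarce, which stabilises the transferrin receptor mRNA and blocks translation of the ferritins. Hepcidin, a peptide hormone made mainly by the liver, removes ferroportin from the cell surface. In renal anaemia hepcidin is typically raised and iron is held back in stores.

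Each value called a difference below is the log2 level in 5/6Nx less the log2 level in sham, where a level is a spot's signal divided by the 75th percentile of its own array. That percentile was 1263 in the 5/6Nx sample and 1452 in the sham sample, so scaling added 0.20 to every log2 difference of the unscaled signals. A gene is represented by its brightest probe, and 2-fold is used as a size, not as a test. Of the 25917 genes measured, 4.89% were at least 2-fold higher in 5/6Nx, 3.29% at least 2-fold lower, and 8.18% either. Of these 2-fold differences 59.8% were higher. That share was 49.2% with quantile normalization, 47.9% with a lowess correction for signal, 49.4% in the authors' normalized table, 42.3% with median scaling and 29.7% with spike-in scaling. The median difference of all genes was 0.05. Where a gene had several measured probes (7995 genes), the SD among its probes' differences was typically 0.20 (median), the yardstick used below. These figures carry technical spread only and leave out the variation between mice.

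None of the 9 measured iron genes was at least 2-fold higher or lower, beside the 4.89% and 3.29% of all genes. Tfrc, which encodes the transferrin receptor, and Ftl1, which encodes the light chain of ferritin, stood highest at 0.96 and 0.84. Cp, which encodes ceruloplasmin, stood lowest at -0.66. The other 6 genes lay between -0.25 and 0.25. The median of the 9 genes was -0.17, beside 0.05 over all genes, with 3 genes above 0 and 6 below it, where 44.6% of all genes lay below 0. With the mean over probes the median was 0.13, with 5 genes above 0 and 4 below. At the level of single probes, 2 of the 16 measured iron gene probes were at least 2-fold higher, 1 of Tfrc and 1 of Ftl1, and none was lower, beside 5.17% and 3.24% of all 38536 measured probes.

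**Figure D1:**
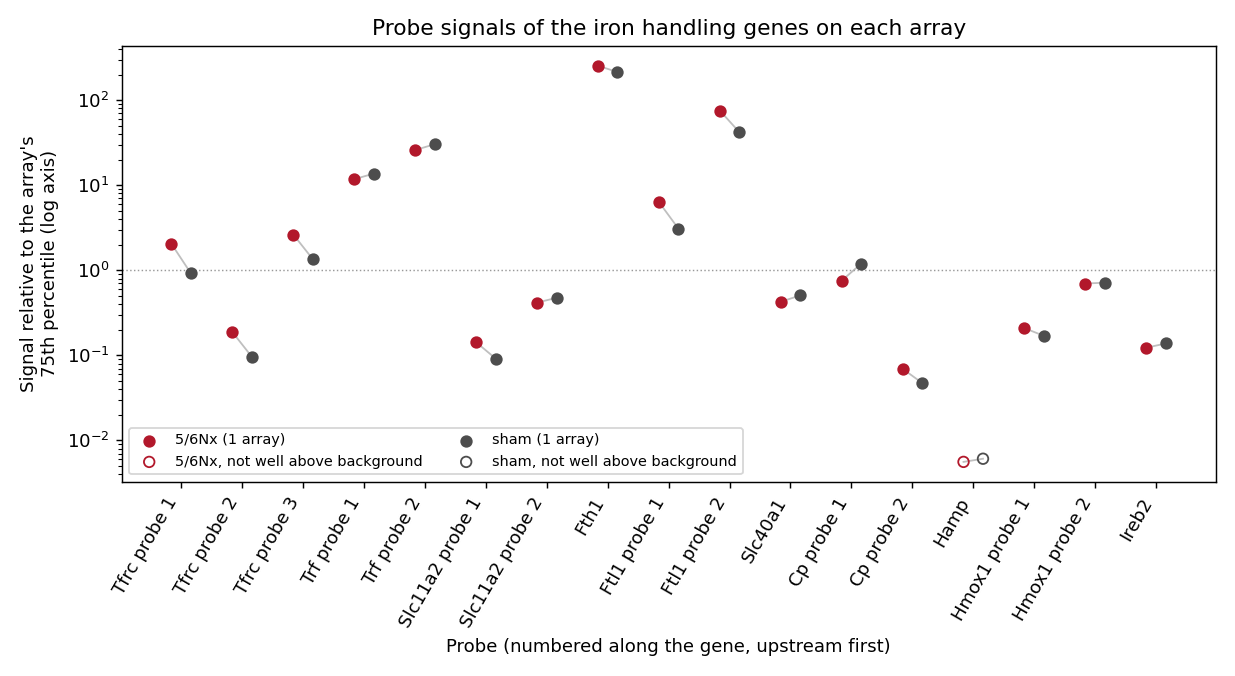
Signal of each of the 17 probes, relative to the 75th percentile of its array on a log axis, on the 5/6Nx array (red, left) and the sham array (grey, right); a grey line joins the 2 values of a probe, and open circles are not well above background. The red point is above the grey one in all 3 Tfrc probes and both Ftl1 probes, and levels of different probes cannot be set against each other.

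Among the genes of iron uptake, Tfrc was read by 3 probes. The first lies at chr16:32620470-32620529 (mm9, plus strand), the second spans chr16:32624877-32625093 with a gap, and the last lies at chr16:32632255-32632314. The first 2 are shown because they read other stretches of the mRNA than the replicated probe, and each has at least 1 reading frame without a stop codon. They are printed as the scanner files give them, with no base singled out:
Tfrc probe 1: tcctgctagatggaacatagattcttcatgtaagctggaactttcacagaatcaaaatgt
Tfrc probe 2: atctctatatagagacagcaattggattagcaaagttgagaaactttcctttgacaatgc

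The last Tfrc probe, which holds a stop codon in every frame, was spotted 10 times on each array. Its processed signal, the background-subtracted fluorescence in arbitrary units, averaged 3321 in the 5/6Nx sample (3132 to 3590 over the 10 spots) and 1959 in the sham sample (1836 to 2097). All 10 spots were brighter on the 5/6Nx array, and the spots of the 2 arrays did not overlap. The scaled difference was 0.96 ± 0.05 (SD over the 10 spot pairs of these 2 arrays), or 1.95-fold. Tfrc probe 1 gave 2578 in 5/6Nx and 1330 in sham, a difference of 1.16 or 2.23-fold. Tfrc probe 2 gave 237 in 5/6Nx and 139 in sham, a difference of 0.97 or 1.96-fold. The 3 probes thus differed among themselves by at most 0.19. Of all measured genes, 5.23% had a difference at least as high as that of Tfrc. With the mean over its probes Tfrc stood at 1.03, above 2-fold, and the other 8 alternatives gave 0.68 to 0.98.

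Trf encodes transferrin, the plasma iron carrier, whose brain mRNA comes mainly from oligodendrocytes and the choroid plexus epithelium. Its downstream probe gave 32712 in 5/6Nx and 43993 in sham, and its upstream probe 14864 in 5/6Nx and 19857 in sham. Both were dimmer on the 5/6Nx array, by -0.23 and -0.22 after scaling, close to the spread of 0.20 between probes. The carrier and its receptor thus lay on opposite sides of 0.

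Slc11a2 encodes the divalent metal transporter that moves iron out of the endosome, and its mRNA exists in forms with and without an IRE at the 3' end. Its 2 probes, 22183 bases apart on the minus strand of chromosome 15, differed in direction. The brighter, downstream probe gave 526 in 5/6Nx and 689 in sham (-0.19), and the upstream probe gave 180 in 5/6Nx and 133 in sham (0.64, or 1.56-fold). The upstream probe, at chr15:100240516-100240575 (mm9), is shown because its value opposes that of the probe representing the gene, which has a stop codon in every frame:
Slc11a2 upstream probe: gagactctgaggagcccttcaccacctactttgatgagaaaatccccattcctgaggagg
The gap of 0.82 between the 2 probes was reached or passed by 17.1% of the 7995 genes with several measured probes. Averaged over both probes, Slc11a2 stood at 0.22, so its direction depended on the probe.

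**Figure D2:**
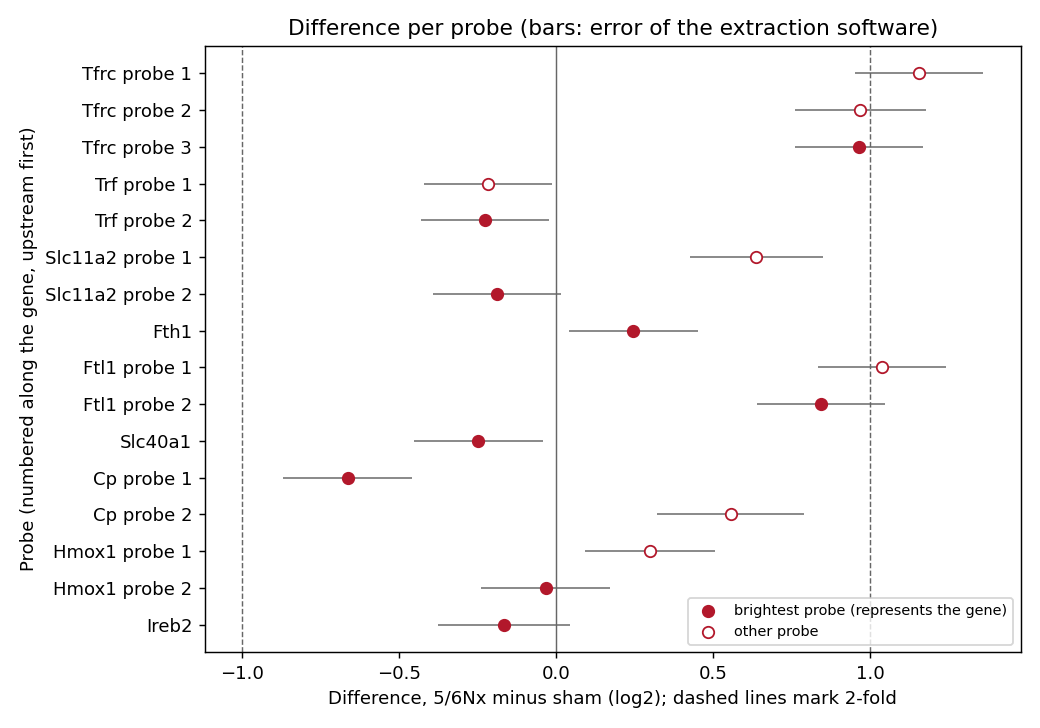
Difference of each of the 16 measured probes (horizontal axis, log2, 5/6Nx minus sham), with the brightest probe of a gene filled and bars for the error that the extraction software gave the signals of both arrays. Tfrc and Ftl1 probes lie from 0.84 to 1.16, while Slc11a2, Cp and Hmox1 have probes on both sides of 0.

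Ferritin is a shell of heavy and light chains. The heavy chain, encoded by Fth1, oxidises iron and the light chain, encoded by Ftl1, helps the iron core form. Fth1 had 1 probe, with signals of 320312 in the 5/6Nx sample and 310429 in the sham sample. The signals were nearly equal, and scaling put the difference at 0.25, or 1.19-fold. It changed sign with the normalization, to -0.08 after quantile normalization, -0.08 in the authors' table and -0.04 with spike-in scaling, so no direction is given for Fth1.

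Ftl1 had 2 probes 916 bases apart. The brighter one gave 95227 in 5/6Nx and 61021 in sham (0.84, 1.79-fold), and the other gave 8012 in 5/6Nx and 4486 in sham (1.04, 2.05-fold). Both were brighter on the 5/6Nx array and differed from each other by 0.19. Of all measured genes 6.995% had a difference at least as high as that of Ftl1, and all 9 alternatives kept it above 0, between 0.56 and 0.94. Ferritin genes have processed copies in the genome, and whether the ferritin probes also read transcripts of such copies was not tested. Only the probes of the array were compared, and no other probe shared a run of 30 bases with any iron gene probe. The second Ftl1 probe spans chr7:52714014-52714495 (mm9, minus strand) with a gap and is shown because it passes 2-fold on its own:
Ftl1 upstream probe: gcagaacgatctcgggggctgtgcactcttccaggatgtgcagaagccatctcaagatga

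Among the genes of iron export, Slc40a1 encodes ferroportin, the only known iron exporter of mammalian cells. Its single probe gave 538 in 5/6Nx and 735 in sham, a difference of -0.25 that stayed below 0 in all 9 alternatives (-0.53 to -0.16). The liver hormone gene Hamp, which encodes hepcidin, gave 7.06 in 5/6Nx and 8.84 in sham, not well above background on either array, so it has no fold.

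Cp encodes ceruloplasmin, the copper ferroxidase that works beside ferroportin and that astrocytes and the choroid plexus make in the brain. Its 2 probes are annotated to different transcript variants in the array design, are named here by that annotation alone, and differed in direction. Whether either probe reads only its annotated variant was not tested, so the values do not describe separate variants. The probe annotated to variant 2 gave 952 in 5/6Nx and 1734 in sham, a difference of -0.66 (1.58-fold higher in sham). The probe annotated to variant 1, 18440 bases downstream, gave 87.9 in 5/6Nx and 68.7 in sham, a difference of 0.56. That second probe was dim: its spot brightness before background subtraction was 172 in 5/6Nx and 150 in sham. The gap of 1.22 between the Cp probes was reached or passed by 7.59% of genes with several measured probes, and their mean stood at -0.05. The variant 2 probe, at chr3:19889071-19889130 (mm9, plus strand), is shown as the lowest of the iron gene probes:
Cp variant 2 probe: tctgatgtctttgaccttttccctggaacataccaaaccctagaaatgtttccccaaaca

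Hmox1 encodes the inducible haem oxygenase, which breaks haem down to iron, biliverdin and carbon monoxide. Its brighter probe gave 882 in 5/6Nx and 1038 in sham, a difference of -0.03. Its upstream probe gave 263 in 5/6Nx and 246 in sham, a difference of 0.30. The brighter value was within the spread of 0.20 between probes, the signs differed, and both were far from 2-fold. The upstream probe, at chr8:77620797-77620856 (mm9, plus strand), has an open reading frame, whereas the brighter one has a stop codon in every frame:
Hmox1 upstream probe: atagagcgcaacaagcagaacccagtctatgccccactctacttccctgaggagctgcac

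Ireb2 encodes iron regulatory protein 2, the sensor that binds IREs when iron is low and is degraded when iron is plentiful. Its probe gave 155 in 5/6Nx and 200.1 in sham, a difference of -0.17, within the spread between probes. This protein is controlled mainly by degradation, a step that an mRNA array does not measure.

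**Figure D3:**
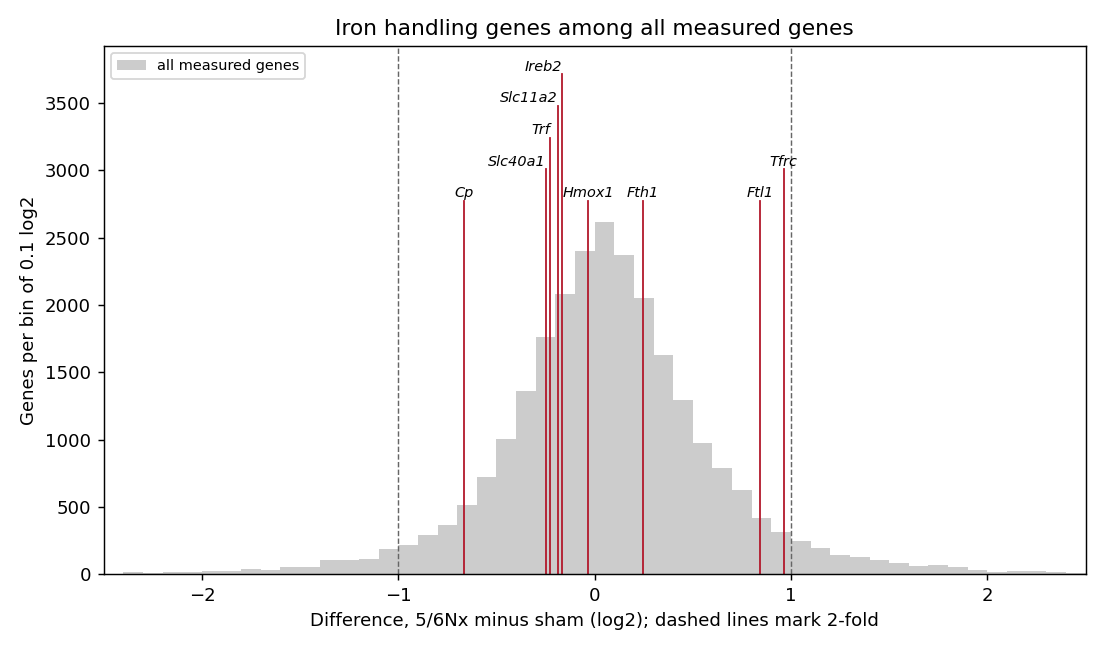
Number of genes per 0.1 log2 bin of the difference (5/6Nx minus sham) over the 25917 measured genes, of which those between -2.5 and 2.5 are drawn, with a red line for each of the 9 measured iron genes. Tfrc and Ftl1 lie near the upper 2-fold line, Cp lies left of the rest, and the other 6 lie in the bulk of the distribution.

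The promoters of 6 of the 10 genes were in the RefSeq promoter table (GRCm38.p6, windows from 250 bases before to 50 after a start): Cp, Hamp, Ftl1, Ireb2, Tfrc and Fth1, in 9 windows. They were searched on both strands for ACGTG, 1 form of the core bound by hypoxia-inducible factors, and for TGACNNNGC, the core of the antioxidant response element. The other form of the first core, GCGTG, was not searched for and is not marked below. ACGTG was found once in each of the 2 Tfrc windows, which overlap and share the match, and in no window of the other 5 genes, and 19.6% of all 32851 windows held it. TGACNNNGC was found in none of the 9, and 12.4% of all windows held it. The 250 bases before the downstream Tfrc start, chr16:32608872-32609121 (GRCm38.p6, plus strand), are shown because Tfrc was the highest of the 9 measured genes, with the ACGTG match, which begins 228 bases before that start, in capitals:
Tfrc promoter: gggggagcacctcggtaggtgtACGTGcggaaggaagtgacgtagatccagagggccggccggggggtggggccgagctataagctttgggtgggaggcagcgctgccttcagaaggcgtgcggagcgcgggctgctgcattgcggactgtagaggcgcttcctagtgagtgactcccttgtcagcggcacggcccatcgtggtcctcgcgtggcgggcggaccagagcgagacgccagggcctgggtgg
A match describes these letters and is not evidence of binding.

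Around the 10 genes, 90 further genes of iron and haem biology were followed in 6 lists, and 85 of them were measured. In 5/6Nx 4 of them passed 2-fold upwards and 3 downwards, 8.24% of the 85 beside 8.18% of all genes. The share was near that of the whole array, and the genes past 2-fold were spread over 4 of the 6 lists. These counts rest on the brightest probe of each gene. With the mean over probes 5 were at least 2-fold higher and 3 lower, beside 1193 and 803 over all genes.

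In the list of iron uptake, reduction and trafficking (18 measured, median 0.07), Tfr2 and Lcn2 passed 2-fold. Tfr2, the second transferrin receptor and an iron sensor of liver and erythroid cells, gave 9424 in 5/6Nx and 2258 in sham, a difference of 2.26 from 1 probe. Lcn2, a siderophore-binding protein of neutrophils and inflamed tissue, gave 620 in 5/6Nx and 4409 in sham, a difference of -2.63. The list of hepcidin regulation (19 measured, median 0.20) held 2 genes past 2-fold, both higher and both from 1 probe. Hfe, the haemochromatosis protein that partners the transferrin receptors, gave 1558 in 5/6Nx and 613 in sham (1.55). Tmprss6, the protease that restrains hepcidin induction, gave 1085 in 5/6Nx and 485 in sham (1.36). The median of the uptake list was -0.09 with median scaling and -0.22 with spike-in scaling. That of the hepcidin list was 0.04 with quantile, lowess and median scaling and in the authors' table, and -0.09 with spike-in scaling, so neither list has a settled direction. The hepatic roles of Tfr2, Hfe and Tmprss6 are background and were not measured here, and Hamp itself was not above background.

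A list of 7 genes joined Aco1 (iron regulatory protein 1), Fbxl5 and mRNAs reported to carry an IRE in some species, and all 7 lay below 0, where 44.6% of all genes did. Their median was -0.21 and none reached 2-fold. With the mean over probes 4 of the 7 lay below 0 and the median was -0.02. The lowest was Fbxl5, the iron-sensing subunit that marks iron regulatory protein 2 for degradation, at -0.61, but its other probe stood at 0.87. Sdhb, an iron-sulfur subunit of succinate dehydrogenase whose IRE is known from the fly mRNA, followed at -0.40 with its other probe at -0.43. In the list of mitochondrial iron and iron-sulfur cluster genes, 16 of 19 lay below 0 with a median of -0.31, and none reached 2-fold. Counts below 0 moved with the scaling: with median scaling 18 of the 19 and 60.1% of all genes lay below 0 (list median -0.47), and with spike-in scaling 18 and 70.8% (list median -0.60). The mitochondrial iron importer gene Slc25a28 was its highest at 0.80.

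Among 9 genes of haem synthesis (median -0.12) Alas2, the erythroid form of the first enzyme, gave 67.6 in 5/6Nx and 1136 in sham, a difference of -3.87. It was the only one of the 9 past 2-fold. Among 13 genes of haem transport, scavenging and breakdown (median -0.35), Slc48a1, which carries haem out of the lysosome, gave 12621 in 5/6Nx and 5935 in sham (1.29). Hpx, the haem scavenger haemopexin, gave 59.1 in 5/6Nx and 189 in sham (-1.48).

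**Figure D4:**
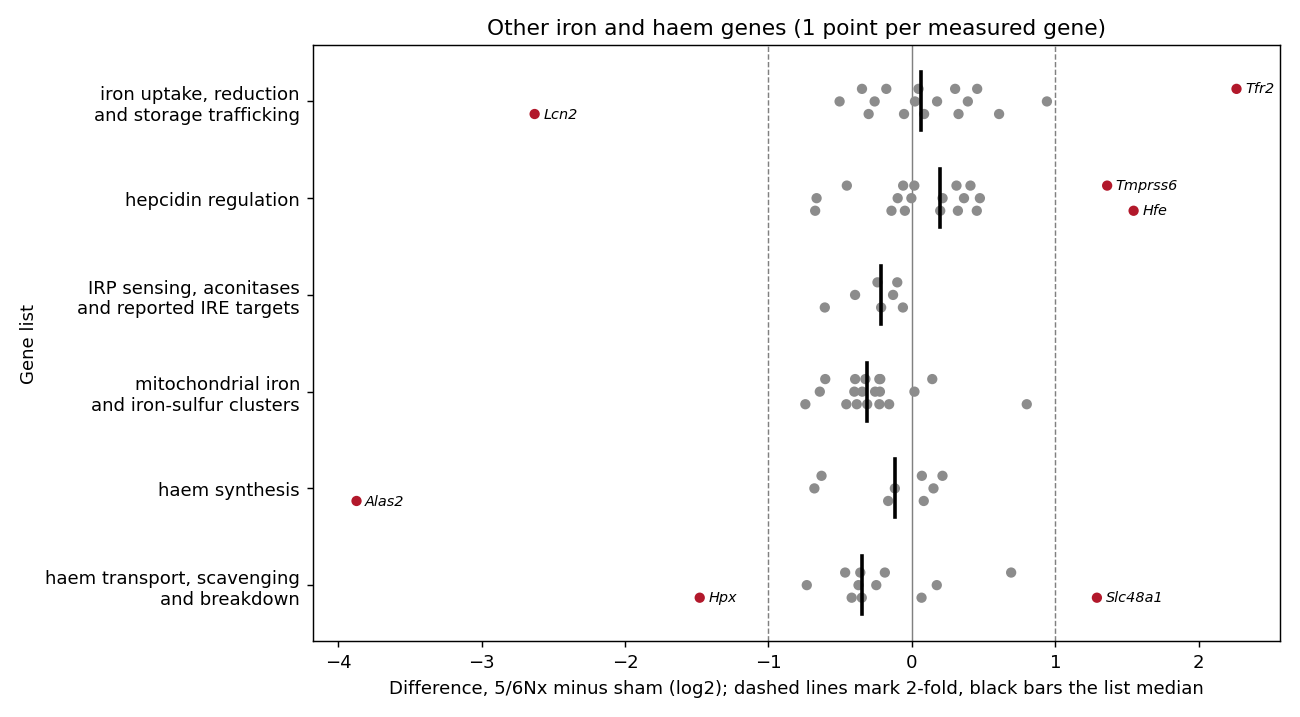
Difference of each measured gene (horizontal axis, log2, 5/6Nx minus sham) in 6 further lists of iron and haem genes, with the list median as a black bar and genes at least 2-fold apart in red and named. Named genes stand on both sides, with 4 higher and 3 lower, and no gene of the lists of IRP sensing (IRP, iron regulatory protein) and of mitochondrial iron passes 2-fold.

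The samples also differed in markers of other tissues and cells, several of which express iron genes. In bulk samples, fewer cells of a type and less RNA per cell cannot be told apart. All 14 measured markers of the choroid plexus epithelium had positive differences, 12 of them past 2-fold. Ttr stood at 6.66 and Clic6 at 4.90, and Cldn2 was well above background in 5/6Nx alone. Their summed scaled signal was 229 in 5/6Nx and 19.8 in sham, and 78.7 in 5/6Nx and 18.3 in sham without Ttr. Such sums follow the brightest probes of a list and are given only to compare the 2 arrays. This epithelium makes Trf and Cp. The 2 Trf probes stood at -0.23 and -0.22, and the 2 Cp probes at -0.66 and 0.56. All 8 measured blood cell markers had negative differences, 7 of them past 2-fold. S100a9 stood at -4.39 and S100a8 at -4.34, and the list had a summed signal of 18.5 in 5/6Nx and 225 in sham. The neutrophil granule gene Ngp was well above background in sham alone. Immature red cells carry Tfrc in abundance. Tfrc stood at 0.96, the blood cell markers and Alas2 stood below 0, and the part of blood cells in the Tfrc value was not tested.

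All 11 markers of leptomeningeal fibroblasts had negative differences, 10 of them past 2-fold. Slc13a3 stood at -2.71 and Slc22a6 at -2.61, with a summed signal of 12.4 in 5/6Nx and 53.0 in sham. All 5 markers of border macrophages passed 2-fold downwards, Lyve1 at -2.83 and Pf4 at -2.40, with summed signals of 0.667 in 5/6Nx and 2.62 in sham. Oligodendrocytes hold much of the brain's iron and make Trf. Of their 12 markers 10 lay below 0 with a median of -0.33, and Opalin (-2.30) and Ugt8a (-1.87) differed most. Mobp was the only one past 2-fold upwards, at 1.44, and the lowest of its probes stood at -0.004. The summed signal of the list was 293 in 5/6Nx and 250.04 in sham. It was 161 in 5/6Nx and 175 in sham without Ermn, whose probes stood at 0.81 and -1.22. The microglial list had a median of -0.38 and sums of 57.5 in 5/6Nx and 64.3 in sham, with Aif1 at -1.29 and Tmem119 at -1.11. The endothelial list, whose cells carry Tfrc at the blood-brain barrier, had a median of 0.18 and sums of 46.8 in 5/6Nx and 45.3 in sham, with Itm2a at -1.04 and Slco1a4 at 0.49. Astrocyte markers had a median of 0.03 and sums of 341 in 5/6Nx and 329 in sham, with Gfap at 1.12 and Aqp4 at -0.83. All 10 markers of hippocampal neurons were measured, with a median of 0.24, sums of 189 in 5/6Nx and 179 in sham, Wfs1 at -1.12 and Dsp at 0.58. Spike-in scaling turned these last 3 medians to -0.11 (endothelium), -0.25 (astrocytes) and -0.05 (neurons), and the astrocyte median was also below 0 with quantile normalization (-0.08), in the authors' table (-0.08) and with median scaling (-0.13). Spike-in scaling also lowered the 5/6Nx sums below those of sham, to 38.4 for endothelium, 279.7 for astrocytes, 155 for neurons and 240.4 for oligodendrocytes. Median scaling did so for endothelium (41.9), astrocytes (305.5) and neurons (169.2) but not for oligodendrocytes (262.7). Without the brightest gene, the sum was lower in 5/6Nx than in sham for endothelium (17.5 and 17.8) and neurons (107.9 and 112.7). For astrocytes it was not (103.1 and 102.7). The part of these cell types in the iron gene differences was not tested.

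**Figure D5:**
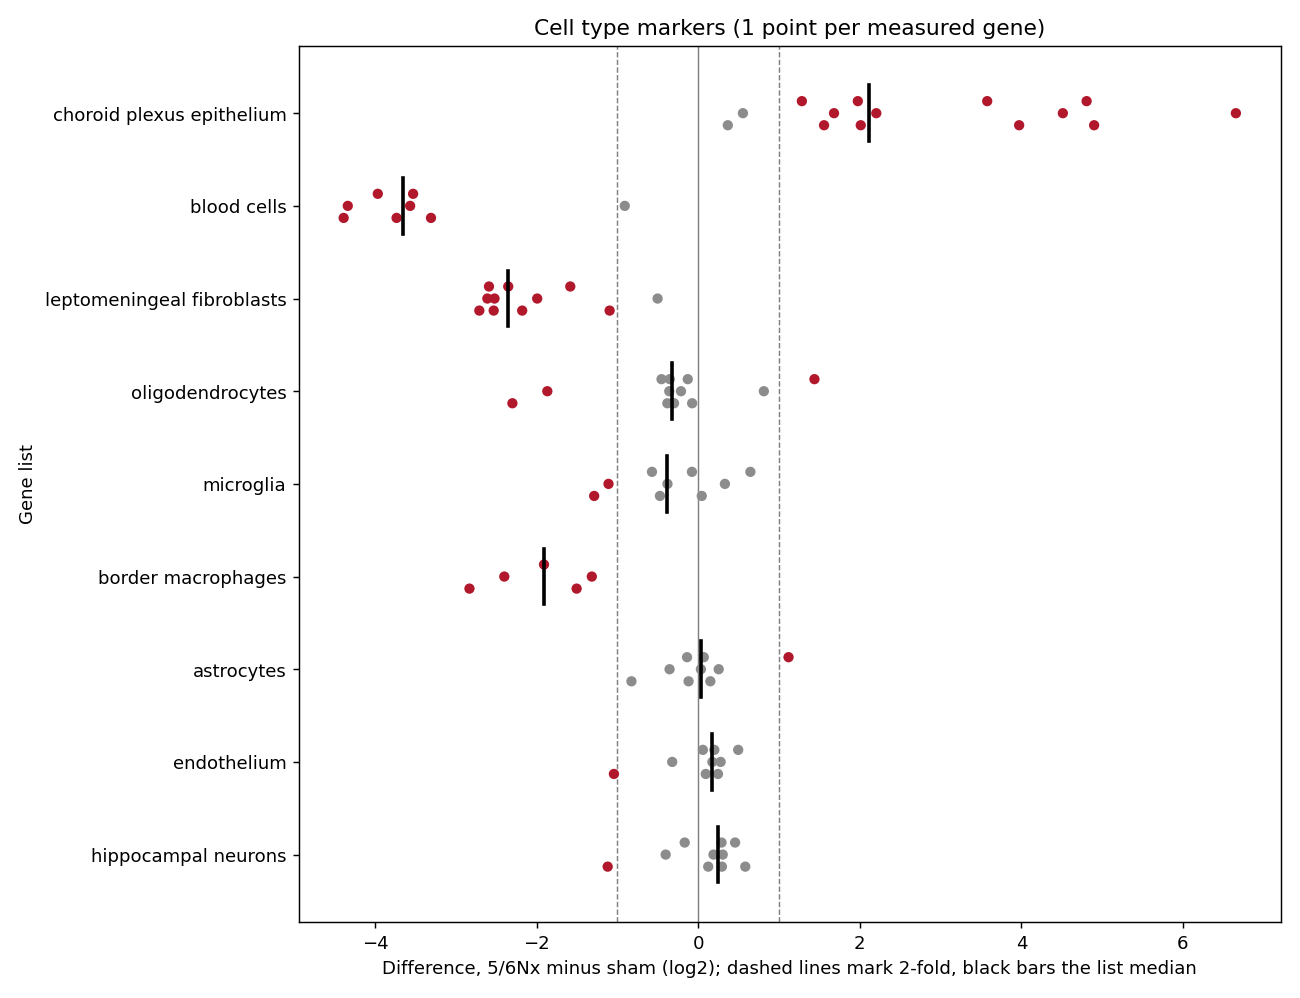
Difference of each measured marker gene (horizontal axis, log2, 5/6Nx minus sham) in 9 cell type lists, with the list median as a black bar and genes at least 2-fold apart in red. Choroid plexus markers lie above 0, markers of blood cells, leptomeningeal fibroblasts and border macrophages lie below 0, and most markers of the other lists lie within 2-fold.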

How the data were processed

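Per the file headers, the authors extracted each array with Agilent Feature Extraction 10.7.1.1; version 9.5.1.1 is the one in the submitters' processing notes. The deposited intensity values were corrected for background by detrending within an array and not normalized between arrays. The deposited series table holds 1 intensity per probe with a median of 124 in both columns, whose sorted values agree within 0.0323%; its normalization is not given in the sources used here, and it served as an alternative. Probe coordinates are on mm9.

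Control spots and outlier spots (97 in 5/6Nx, 105 in sham, none of an iron gene) were left out, each processed intensity was divided by the 75th percentile of its array and put on the log2 scale, and spots of a probe were averaged. In 5/6Nx 72.5% and in sham 72.7% of 59305 spots were well above background, and none was saturated. The number of arrays limits the precision. Probes were named through RefSeq genes (GRCm38.p6; 27235 by accession, 3581 by symbol, 565 by synonym, 24300 with the file's name). Iron genes were named by the file alone. A gene counted as measured when its brightest probe was well above background on both arrays.

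The genes and lists were chosen with earlier results of these data known. Named genes are all 10 iron genes; of each other list, up to 4 genes past 2-fold and otherwise the 2 with the largest difference; and 2 genes per marker list; 1 gene that this rule names is not reported here. Cldn2, Ngp, Ermn, Mobp and the printed probes were chosen after their values were seen. Groups hold 1 array each, so no p-value was computed. The calculation was tested on simulated data. Alternatives used limma 3.58.1 (normexp, offset 50) and statsmodels 0.14.6 (lowess, span 0.3), and the error of a probe combines the software's errors on both arrays.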

Additional observations from a re-analysis of the deposited data

How the results depend on the processing

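No paired analysis was possible because neither side of the comparison has a second array, and for that reason no array could be left out. Dim probes such as the variant 1 probe of Cp are limited by their signal over background. Of the 9 measured iron genes, Tfrc, Ftl1, Trf, Slc40a1, Cp and Ireb2 kept their direction in all 9 alternatives, which process the same 2 arrays again. Fth1 did so in 6, and Hmox1 and Slc11a2 in 8. Only the mean over probes used more than 1 probe of a gene, so the other alternatives cannot show disagreement between probes. With that mean Cp stood at -0.05, and Hmox1 (0.13) and Slc11a2 (0.22) moved above 0. The median of the 9 genes was 0.13 with the mean over probes, where 1 gene (Tfrc) was at least 2-fold higher, and -0.45 with spike-in scaling, which moved the median of all genes to -0.23 against 0.05 and every gene by 1 constant. Among the further iron and haem genes, 5 were lower with spike-in scaling, 1 was lower above the median signal, 8 were higher and 12 lower at 1.5-fold, and 1 was higher at 3-fold. Over all genes, spike-in scaling put 705 past 2-fold upwards and 1670 downwards, normexp 683 and 497, unsubtracted signals 635 and 468, all probes including dim ones 2590 and 1668, and probes above the median signal 319 and 305. A 1.5-fold threshold gave 3549 and 2313, and a 3-fold threshold 387 and 245. Filters and thresholds set their own changes, and for the others the cause was not tested.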

Other observations

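In 5 of the 6 iron genes with several measured probes, the probe farthest upstream in the gene had the higher difference between 5/6Nx and sham. The gaps between the upstream and the downstream probe were 0.82 in Slc11a2, 0.33 in Hmox1, 0.19 in Ftl1, 0.19 in Tfrc and 0.01 in Trf, and Cp was the exception at -1.22. In each of these 5 the upstream probe was also the dimmer one. This comparison was chosen after seeing the data. Over all 7907 genes with probes in order along 1 strand, the upstream probe was the higher one in 55.7%, with a median gap of 0.05. After removal of the trend with signal the share over all genes was 51.9% and the median gap 0.02, while the iron genes stood as before (5 of 6, with a gap of 0.73 in Slc11a2). Where the upstream probe was the brighter one (2771 genes), the share was 53.6% before that removal and 59.3% after it. Where it was the dimmer one (5136 genes), the shares were 56.9% and 47.9%. The cause was not tested.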
